A study of Mus musculus with 16 samples.

Results

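Goblet cells of the mouse distal colon were compared with the other epithelial cells of the same tissue across all genes, from 8 of the 16 bulk RNA libraries of the study: the 4 libraries of the mCherry-positive sort against the 4 of the mCherry-negative sort. All 8 came from RedMUC298trTg mice of 6 to 8 weeks, a line known to carry an mCherry-tagged human MUC2 transgene, so goblet and other cells alike carried the transgene and the sort followed its product. Live cells were sorted from epithelium released with EDTA and then digested with collagenase and DNase, and total RNA was sequenced after ribosomal RNA removal. RNA of the goblet sort was purified on MinElute columns and RNA of the other sort on Mini columns, so the column and the cell type cannot be told apart. The labels name the negative sort colonocytes, although its gate was only the absence of mCherry, and do not say which libraries share an animal. The spread behind each p-value may therefore be partly technical. The remaining 8 libraries, from section 8 of the small intestine, appear below only where the effect of the sort was set against theirs.

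Goblet cells are the secretory cells of the intestinal epithelium that make and release gel-forming mucins. Mucin polypeptides are translated at the rough endoplasmic reticulum (ER), folded and joined by disulphide bonds there, glycosylated in the Golgi and stored in granules, so that few cells carry a comparable load on translation, folding and sugar transfer. In the colon goblet cells sit both at the crypt base, where dividing cells lie, and towards the surface, among colonocytes that take up salt, water and short-chain fatty acids. The other sort holds those colonocytes together with stem cells, enteroendocrine cells and tuft cells. In bulk RNA a lower level from fewer cells of a type and one from less RNA per cell cannot be told apart.

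Total counts per library, in units of 1e6, ranged from 11.9 to 18.5 in goblet cells and from 14.9 to 17.7 in other cells. Of 13955 genes tested, 8824 were called at an adjusted p under 0.05, which is 63.2% of them. 4347 were higher in goblet cells (31.2%) and 4477 lower (32.1%), and 1201 (8.61%) and 1824 (13.1%) of these also differed by a log2 of at least 1, a factor of at least 2. With counts divided by library totals alone, without TMM factors, the split was 5646 higher and 3737 lower, because the median of all genes moved up by 0.13. The 10 most abundant genes of each library took 9.27% ± 0.229 of goblet counts and 8.95% ± 0.748 of the others (two-sided exact permutation p = 0.486), and 7.64% ± 0.239 against 8.95% ± 0.748 without Muc2 and Fcgbp (exact permutation p = 0.0286, the smallest the design allows). Muc2 and Fcgbp were left out for their high goblet level, and no matching genes of the other sort were left out. The lower goblet share and its p-value follow from that choice and cannot be read as a difference between the sorts. In 8054 genes (57.7%) the 4 values of one sort did not overlap the 4 of the other. Absence of overlap was also part of the rule for naming genes below, so it is no separate result for those genes. Levels are CPM, counts per 1e6 of the library total multiplied by its TMM factor, given as mean ± SD over 4 libraries. They are therefore not exact shares of a library. Differences are log2 fold changes ± SE, goblet minus other. The first principal component of the tested genes held 90.7% of the variance and separated the sorts. The second held 3.07%, with goblet library S13 (−0.52) and other library S14 (−0.62) apart from the remaining 6.

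Each list of genes below is read against these shares and against the median of all tested genes, which was 0.03. Markers went with the label of the goblet sort, with Muc2, the gel-forming mucin, at 11090.0 ± 671 CPM against 44.8 ± 7.59 and Fcgbp, its binding partner in mucus, at 16281 ± 1066 CPM against 82.9 ± 11.3. Because the gate followed the product of a MUC2 transgene, high Muc2 is no independent check of that label. 7 of 8 deep crypt secretory markers were higher in goblet cells, with a summed level of 3656 to 4715 CPM against 43.2 to 69.2, and 14 of 15 mature colonocyte markers were lower, at 1046 to 1329 CPM against 15398 to 17825. Enteroendocrine markers summed to 126 to 160.0 CPM in goblet libraries and 578 to 776 CPM in the others. Among markers of cells outside the epithelium, the B and plasma cell list had the highest sum, 118 to 133 CPM against 332 to 427, and both tested members were lower. Nearly all of it was Sdc1, which epithelial cells also express (123.21 ± 6.15 CPM against 382 ± 39.001). Igha, the constant region of immunoglobulin A, gave 0 counts over the goblet libraries and 173 over the others, and 10 of the 12 members were too low to test. Intraepithelial lymphocyte markers summed to 4.63 to 6.95 CPM against 11.2 to 13.3, fibroblast and smooth muscle markers to 9.66 to 14.5 against 23.4 to 40.7, and erythroid markers to 0.305 to 0.900 against 6.12 to 11.8, with Hba-a1 and Hba-a2 at 0 counts in all 8. Endothelial markers summed to 17.6 to 25.9 CPM against 16.5 to 18.7, and enteric neuron and glia markers to 3.53 to 4.47 against 8.51 to 10.8. Their part in the results was not tested.

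**Figure D1:**
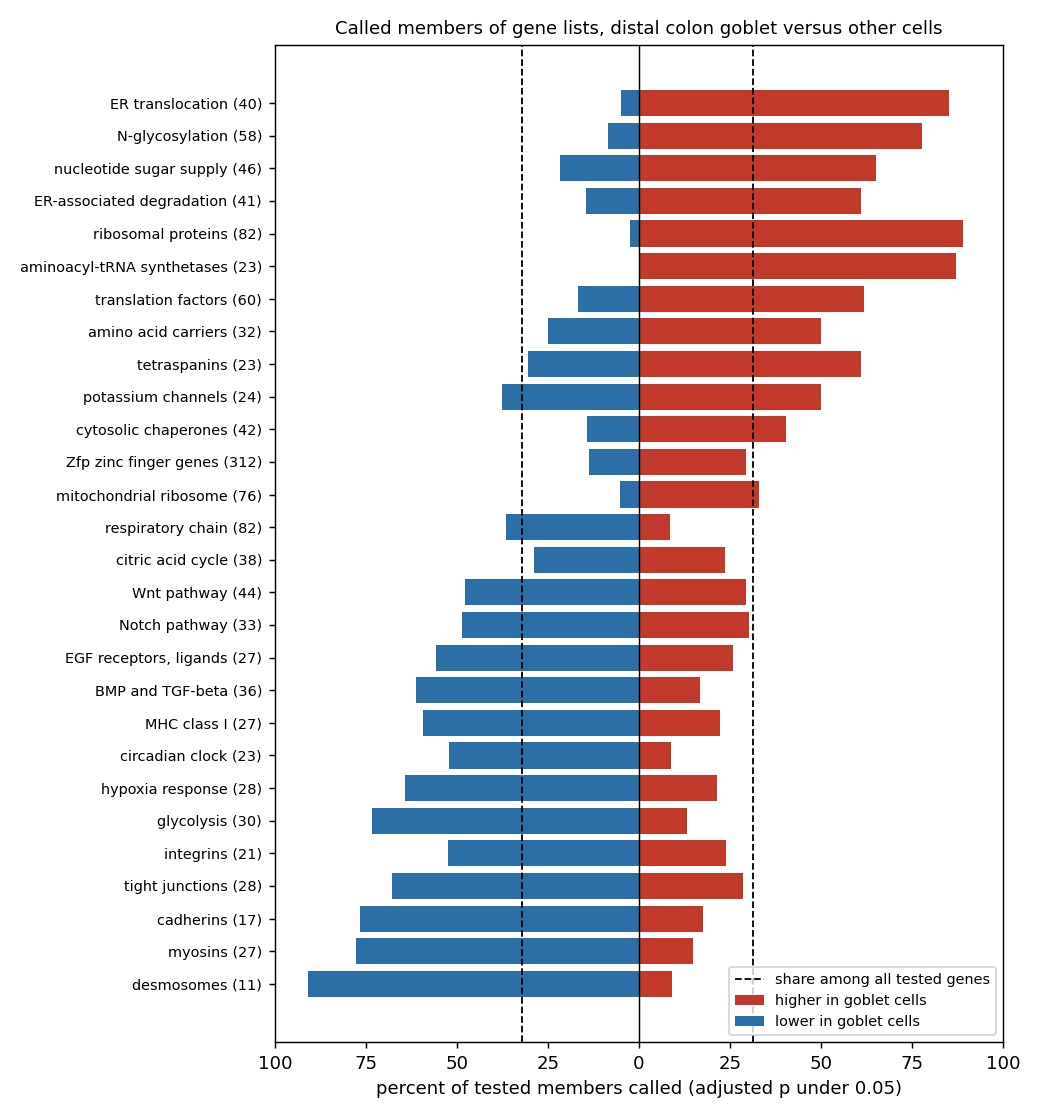
Percent of the tested members of 28 gene lists called higher (red, to the right) or lower (blue, to the left) in goblet cells, with the number of tested members in brackets and dashed lines at the shares among all tested genes (31.2% and 32.1%). Ribosomal proteins, aminoacyl-tRNA synthetases and ER translocation reach 89.0%, 87.0% and 85.0% higher, whereas desmosomes, myosins, cadherins and glycolysis lie at 90.9%, 77.8%, 76.5% and 73.3% lower.

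Most genes of the early secretory pathway were higher in goblet cells. Of 40 tested genes of ER translocation and signal peptide removal, 34 were higher and 2 lower, with a median of 0.63. The translocon-associated proteins Ssr3 (531 ± 20.5 CPM against 183 ± 20.3, 2.90-fold) and Ssr1 (2.67-fold) and the signal peptidase subunit Spcs3 (2.75-fold) led them, and the minor translocon channel Sec61a2 was lower (16.2 ± 1.32 CPM against 21.6 ± 1.47). In ER-associated degradation, which returns misfolded proteins to the cytosol, 25 of 41 were higher and 6 lower, with a median of 0.30. Herpud1, which organises the degradation complex at the ER membrane, had 802, 716, 542 and 777 CPM in the goblet libraries and 205, 207, 171 and 169 CPM in the other libraries. Every goblet library exceeded every other library, and the rise was 1.92 ± 0.12 (3.77-fold, adjusted p = 2.81e-08).

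The rise of ER chaperones could be set beside the letters of their promoters. The ER stress element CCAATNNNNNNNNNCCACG is known to be bound by ATF6 together with NF-Y when unfolded protein accumulates in the ER. It was searched on both strands in RefSeq promoter windows of GRCm38.p6, from 250 bases before to 50 after each transcript start, of which 12841 matched 10068 of the 13955 tested genes. Only 16 windows held it, in 16 genes, which is 0.159% of the genes with a window. 11 of these 16 genes were higher in goblet cells, 1 was lower and 4 were not called, or 0.333% of the higher genes, 0.0314% of the lower and 0.112% of those not called. The higher ones were Zfp57, Pdia6, Creld2, Dnajc3, Calr, Hsp90b1, Hspa5, Syvn1, Canx, Alg12 and Hnrnpa3, most of them ER chaperones, folding enzymes or ER quality control proteins. In Spats2l, the lower one, the element lay after the start. These are descriptions of letters in a window and not of binding, and tested genes with no matched window were not searched.

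The bases before the start are shown for 4 of these genes, each of them called higher. They run 5′ to 3′ on the strand of the gene, in lower case with the element in capitals. The genes are Hspa5 (chr2:34771840-34772089, plus strand), Pdia6 (chr12:17266339-17266588, plus strand), Syvn1 (chr19:6046326-6046575, plus strand) and Creld2 (chr15:88819396-88819645, plus strand). The window of Creld2 overlaps that of Alg12 (chr15:88819319-88819568, minus strand), so both share 1 element and are not separate cases. Hspa5, Pdia6, Syvn1 and Creld2 were picked after their values were seen.
Hspa5: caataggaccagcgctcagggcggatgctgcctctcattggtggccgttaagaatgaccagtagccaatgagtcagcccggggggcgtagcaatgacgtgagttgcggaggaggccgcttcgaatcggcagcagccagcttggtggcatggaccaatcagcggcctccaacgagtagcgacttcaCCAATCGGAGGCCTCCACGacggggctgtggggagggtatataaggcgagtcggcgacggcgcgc
Pdia6: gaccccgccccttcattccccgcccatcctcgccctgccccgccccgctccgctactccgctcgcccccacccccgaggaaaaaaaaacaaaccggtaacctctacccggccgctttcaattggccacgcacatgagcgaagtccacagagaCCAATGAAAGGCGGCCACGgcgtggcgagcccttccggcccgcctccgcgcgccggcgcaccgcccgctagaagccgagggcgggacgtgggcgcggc
Syvn1: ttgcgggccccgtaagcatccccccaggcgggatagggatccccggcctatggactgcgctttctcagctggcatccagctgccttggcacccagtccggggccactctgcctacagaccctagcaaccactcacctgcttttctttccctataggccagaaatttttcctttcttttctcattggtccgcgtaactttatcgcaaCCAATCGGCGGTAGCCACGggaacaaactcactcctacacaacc
Creld2: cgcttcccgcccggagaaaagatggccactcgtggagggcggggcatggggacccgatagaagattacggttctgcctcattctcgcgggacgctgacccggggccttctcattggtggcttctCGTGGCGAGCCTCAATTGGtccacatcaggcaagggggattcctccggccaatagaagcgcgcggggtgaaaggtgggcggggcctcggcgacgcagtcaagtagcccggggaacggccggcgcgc
Counted from the start, the element lay from −65 to −47 in Hspa5, from −98 to −80 in Pdia6, from −44 to −26 in Syvn1 and, read on the other strand, from −126 to −108 in Creld2.

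Hspa5, the main Hsp70 chaperone of the ER lumen, had 3159, 2297, 2285 and 2606 CPM in the goblet libraries and 1380.2, 1293, 1091 and 1099.9 CPM in the other libraries. Its goblet values were all higher, with S9 the highest, and the rise was 1.09 ± 0.11 (adjusted p = 1.10e-06). Pdia6, a disulphide isomerase, had 557, 510.4, 585 and 571 CPM in the goblet libraries and 153, 113, 159.9 and 121 CPM in the other libraries, a rise of 2.02 ± 0.11 (adjusted p = 1.15e-09). Creld2, an ER-resident protein of the unfolded protein response, rose 3.10-fold (78.9 ± 13.4 CPM against 25.4 ± 5.42), and Syvn1, the ubiquitin ligase of ER-associated degradation, 1.76-fold (63.4 ± 5.99 CPM against 35.99 ± 3.94). The related element TGACGTGG or TGACGTGT, known for XBP1 and CREB3-like factors, was in 2.75% of higher genes, 4.2% of those higher by a log2 of at least 1, 1.29% of lower genes and 1.75% of all genes with a window. The last 5 letters of TGACGTGG are the reverse complement of the last 5 of the ER stress element. The E-box CAGCTG, of the kind ATOH1 binds, was in 17.5% of higher genes, 22.7% of those higher by a log2 of at least 1, 21.2% of lower genes and 17.9% of all. For the E-box CACGTG these shares were 13.5%, 10.2%, 10.8% and 11.7%.

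**Figure D2:**
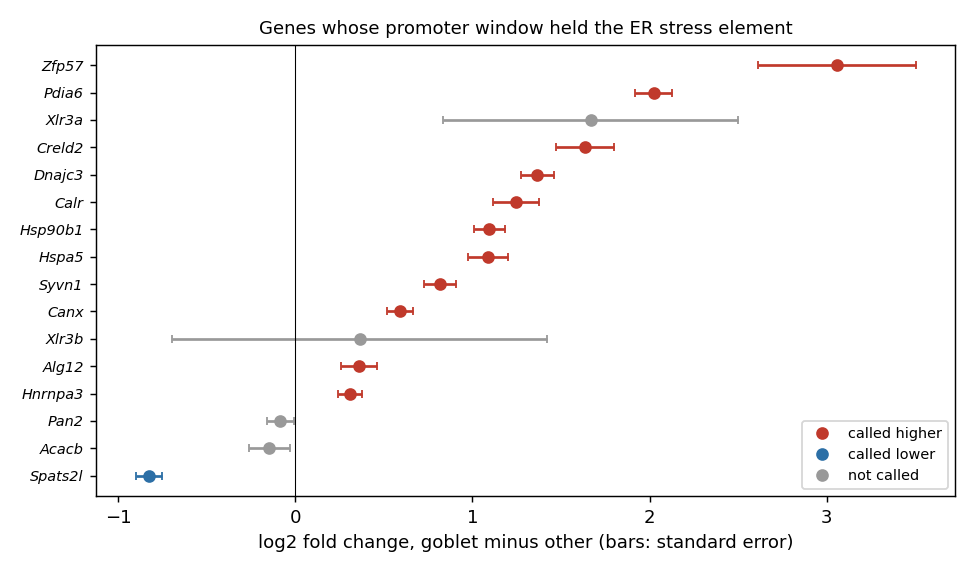
Log2 fold change, goblet minus other, with standard error, of the 16 genes whose promoter window held the ER stress element, coloured by call. 11 lie to the right of 0 and were called higher, from Hnrnpa3 at 0.31 to Zfp57 at 3.06, and Spats2l alone was called lower, at −0.83.

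Most genes of sugar supply and N-glycosylation were higher too. 45 of 58 N-glycosylation genes were higher and 5 lower (median 0.68), and 30 of 46 genes of nucleotide sugar supply were higher and 10 lower (median 0.55). St6gal1, which caps N-glycans with α2,6-linked sialic acid (chr16:23224740-23360350, GRCm38, plus strand), had 512, 417, 585 and 487 CPM in the goblet libraries and 2.99, 2.18, 2.73 and 2.99 CPM in the other libraries. The 2 sorts differed 182-fold, a rise of 7.51 ± 0.13 (adjusted p = 7.46e-15). Cmah, which converts the sialic acid Neu5Ac to Neu5Gc (chr13:24327404-24477377, plus strand), had 246, 174, 215 and 245 CPM in the goblet libraries and 3.88, 4.65, 3.99 and 5.64 CPM in the other libraries. It rose by 5.60 ± 0.15 (48.5-fold, adjusted p = 5.34e-12), and no goblet value came near the others. Ostc, a subunit of the oligosaccharyltransferase, rose 3.55-fold, and Fut8, which adds the core fucose, 3.23-fold (359 ± 18.5 CPM against 111 ± 6.66). Among the 5 lower genes of N-glycosylation, the branching enzyme Mgat4a was lower by 3.37-fold (298 ± 12.1 CPM against 1006 ± 25.9) and the galactosyltransferase B4galt1 by 5.16-fold (43.1 ± 5.63 CPM against 222 ± 5.87). Ugdh, which makes UDP-glucuronate, was also lower (50.9 ± 4.49 CPM against 293 ± 21.5).

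Vesicle traffic genes were mixed. Of 49 Rab GTPases 16 were higher and 22 lower, and of 46 SNAREs and their partners 18 were higher and 14 lower. Rab3d (389.6 ± 13.1 CPM against 84.8 ± 6.91) and Rab27b (221 ± 12.8 CPM against 50.5 ± 5.69), both known from secretory granules, were among the higher ones, and Rab17, of apical recycling endosomes, was lower (2.397 ± 0.770 CPM against 14.01 ± 0.591). Of 26 genes of GPI anchor synthesis 13 were higher and 4 lower (median 0.24).

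The protein synthesis apparatus was higher in goblet cells by small steps in most genes. 73 of 82 cytosolic ribosomal protein genes were higher and 2 lower, with a median of 0.32 and a range of −0.20 to 0.63, so no member differed by a log2 of 1. 20 of 23 cytosolic aminoacyl-tRNA synthetases, which charge tRNAs with amino acids, were higher and 0 lower (median 0.47). Initiation and elongation factors had 37 of 60 higher and 10 lower (median 0.24). Rpl38 had 257, 277, 277 and 282 CPM in the goblet libraries and 173, 177, 192 and 165 CPM in the other libraries. Its sorts did not overlap and differed by 0.63 ± 0.06 (adjusted p = 4.80e-07). Wars, which charges tryptophan tRNA, had 266, 238, 253 and 230.3 CPM in the goblet libraries and 91.1, 73.7, 81.5 and 83.9 CPM in the other libraries, a rise of 1.58 ± 0.07 (2.99-fold, adjusted p = 7.58e-11). Eif2ak3, the ER stress kinase PERK, rose 2.74-fold (267 ± 40.3 CPM against 97.6 ± 8.54), whereas Eef2k, the kinase that slows elongation, was lower by 2.52-fold (70.9 ± 3.16 CPM against 179 ± 5.34).

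Library totals as the scale raised these medians by the common shift, to 0.45 for ribosomal proteins and 0.59 for the synthetases, and left their direction. With TMM factors the ribosomal protein genes summed to 36065.5 to 38868 CPM in goblet libraries and 28561 to 32921 CPM in the others, without overlap. Mitochondrial ribosomal proteins had 25 of 76 higher and 4 lower (median 0.15), and 49 higher with library totals. The proteasome had 11 of 46 higher and 6 lower, with the immunoproteasome subunits Psmb8 (8.84 ± 1.74 CPM against 20.6 ± 3.42) and Psmb10 (34.4 ± 2.06 CPM against 65.2 ± 3.07) among the lower ones.

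In amino acid supply more genes were higher than lower, but summed levels were not higher. Of 40 genes of serine, proline and asparagine synthesis and other ATF4 targets, 17 were higher and 8 lower (median 0.20), 10 and 2 of them by a log2 of at least 1. Pycr1, the mitochondrial enzyme of the last step of proline synthesis, had 15.05, 16.99, 15.4 and 17.8 CPM in the goblet libraries and 1.41, 1.09, 0.932 and 0.884 CPM in the other libraries. The goblet values were all above 15 CPM and the others all below 2 CPM, a rise of 3.89 ± 0.15 (14.9-fold, adjusted p = 1.33e-11). Asns, which makes asparagine, had 92.6, 82.7, 84.3 and 87.8 CPM in the goblet libraries and 25.2, 21.5, 22.5 and 20.8 CPM in the other libraries, and rose by 1.95 ± 0.08 (3.85-fold, adjusted p = 1.14e-11). The summed level of the whole list overlapped, at 4196 to 5955 CPM in goblet libraries and 4638 to 6155 CPM in the others. Amino acid carriers had 16 of 32 higher and 8 lower. Their summed level was lower in goblet libraries, at 1761 to 1993 CPM against 2618 to 2977 CPM. The fall of Slc6a14 alone, given below, was larger than that of the sum, so the lower sum rests on that gene. The neutral amino acid carriers Slc43a1 (21.2 ± 1.34 CPM against 2.22 ± 0.415) and Slc43a2 (18.9 ± 4.17 CPM against 3.88 ± 0.379) and the lysosomal arginine sensor Slc38a9 (14.3 ± 0.729 CPM against 2.68 ± 0.718) rose, and the apical carriers Slc3a1 (2.51 ± 0.946 CPM against 30.7 ± 5.41) and Slc6a14 (224 ± 33.5 CPM against 1258 ± 91.5) fell. Srm, which makes spermidine (3.08-fold), and Impdh1, of guanine nucleotide synthesis (3.45-fold), were higher too.

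**Figure D3:**
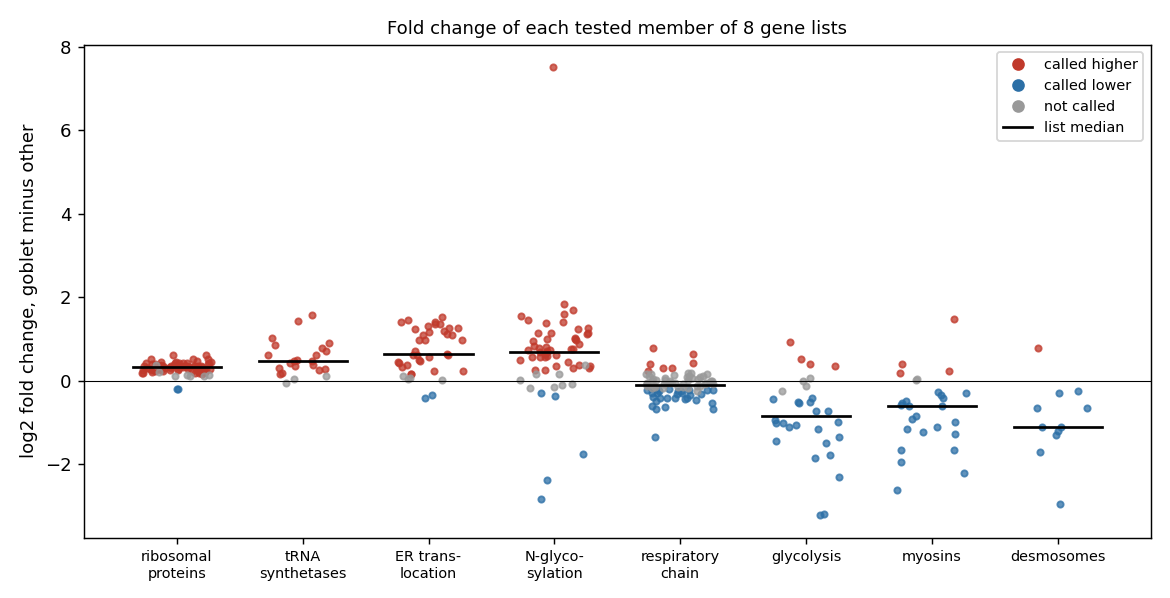
Log2 fold change, goblet minus other, of each tested member of 8 gene lists, coloured by call, with the list median as a black line. The ribosomal proteins form a narrow band around 0.32 and the respiratory chain one around −0.10, whereas glycolysis, myosins and desmosomes lie mostly below 0, with medians of −0.84, −0.60 and −1.10.

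Glycolysis was the metabolic pathway with the largest share of lower genes among those listed, 22 of 30 against 4 higher, at a median of −0.84. Pkm, the pyruvate kinase of the last step, had 259, 279.9, 280.4 and 278 CPM in the goblet libraries and 971, 1017, 979 and 989 CPM in the other libraries. All goblet values lay below all others, and the difference was −1.85 ± 0.06 (3.61-fold lower, adjusted p = 1.68e-12). Eno3, an enolase best known from muscle, had 20.6, 22.1, 20.8 and 19.9 CPM in the goblet libraries and 173, 221, 188 and 196 CPM in the other libraries, a fall of 9.32-fold (−3.22 ± 0.08, adjusted p = 1.15e-13). Pfkp, a phosphofructokinase, was lower by 3.41-fold (79.4 ± 5.59 CPM against 271 ± 1.49). Pck1, which runs from oxaloacetate towards glucose, was among the 4 higher genes (444 ± 29.7 CPM against 233 ± 25.3). The count of lower genes was the same with library totals and with size factors, 22 of 30.

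The nuclear-encoded respiratory chain had 7 of 82 higher and 30 lower, with a median of −0.10, but with library totals 17 were higher and 16 lower (median 0.02), and without goblet library S9 19 were lower, so the list has no direction that holds under each scaling. In the citric acid cycle and pyruvate entry 9 of 38 were higher and 11 lower, a balance that turned to 14 and 9 with library totals. Citrate synthase Cs was lower (366 ± 8.10 CPM against 889 ± 16.9) and Idh2 higher (157 ± 9.05 CPM against 85.7 ± 10.5). H6pd, which makes NADPH inside the ER, rose 3.84-fold (53.6 ± 6.47 CPM against 13.9 ± 1.79), whereas G6pdx, its cytosolic counterpart, fell (41.99 ± 1.495 CPM against 59.2 ± 3.48).

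In the list of glutathione, thioredoxin and oxidant defence 10 of 45 were higher and 22 lower. Prdx6, a peroxidase that reduces lipid peroxides, had 207, 183, 202 and 237 CPM in the goblet libraries and 2569, 2728, 2871 and 3062 CPM in the other libraries. Goblet values lay far below the others, a fall of 13.6-fold (−3.76 ± 0.09, adjusted p = 1.01e-13). Srxn1 (27.02 ± 1.15 CPM against 121 ± 2.92) and Duoxa2, the maturation factor of the hydrogen peroxide source DUOX2 (9.22 ± 1.55 CPM against 40.2 ± 6.02), were lower as well. Iron, zinc and copper handling had 12 of 40 higher and 18 lower, but 16 higher and 14 lower with library totals. Slc40a1, ferroportin, the iron exporter, had 36.5, 30.2, 36.3 and 43.5 CPM in the goblet libraries and 279.6, 322, 282 and 320.1 CPM in the other libraries, a fall of 8.25-fold (adjusted p = 4.19e-12). Among zinc and manganese carriers Slc30a10 (9.11 ± 2.87 CPM against 129.8 ± 28.3) and Slc39a4 (47.8 ± 1.93 CPM against 216 ± 10.7) were lower, and Slc39a8 (99.8 ± 1.24 CPM against 33.7 ± 3.74), Slc39a11 (210.2 ± 8.16 CPM against 76.9 ± 7.30) and the Golgi carrier Slc39a13 (12.4 ± 0.699 CPM against 2.94 ± 0.207) were higher.

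In lipid synthesis 18 of 36 fatty acid and triglyceride genes were lower and 10 higher. Dgat2, of triglyceride synthesis, fell 4.48-fold (12.1 ± 1.38 CPM against 53.9 ± 6.92), and Acsl1, which activates fatty acids, rose 4.31-fold (126 ± 14.9 CPM against 29.2 ± 4.99). Of 36 sphingolipid genes 17 were lower and 11 higher (14 and 14 with library totals), with Sptssb, a small subunit that sets the substrate of serine palmitoyltransferase, at 2.52 ± 0.499 CPM against 60.5 ± 5.61 (24.5-fold lower). Slco2a1, a prostaglandin carrier, fell 26.4-fold (5.59 ± 1.48 CPM against 145 ± 12.4). Pla2g2a, a secreted phospholipase, gave 961 counts over the goblet libraries and 3 over the others, a ratio of 295 (95% interval from counting error 101 to 1430).

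Transcription factor families differed in their balance of higher and lower genes. The bHLH family had 14 of 37 higher and 15 lower (17 and 14 with library totals), and the ETS family 5 of 19 and 8 (8 and 7 with library totals). SOX factors had 0 of 7 higher and 5 lower, and KLF and SP factors 3 of 21 higher and 9 lower. Interferon regulatory and STAT factors had 1 of 14 higher and 7 lower. Creb3l4, a membrane-bound factor of the ER, had 181, 174, 187 and 169 CPM in the goblet libraries and 4.17, 2.76, 6.46 and 3.54 CPM in the other libraries, a rise of 5.38 ± 0.16 (41.8-fold, adjusted p = 7.32e-11). Etv5, an ETS factor downstream of receptor kinases, had 94.8, 116, 80.8 and 129.5 CPM in the goblet libraries and 10.4, 9.96, 9.25 and 12.2 CPM in the other libraries. The lowest goblet library lay above every other library, and the rise was 10.1-fold (adjusted p = 3.43e-09). Mxd1, which competes with MYC for MAX, had 209.7, 215, 199 and 255 CPM in the goblet libraries and 1509, 1894, 1284 and 1683 CPM in the other libraries (−2.86 ± 0.12, adjusted p = 1.89e-10), and its partner Max fell too (41.8 ± 4.37 CPM against 187 ± 16.2).

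Other factors that rose include Xbp1, a factor of the unfolded protein response (543 ± 37.7 CPM against 157 ± 10.6), Id4, an inhibitor of bHLH factors (14.8 ± 2.60 CPM against 0.620 ± 0.136), Foxa3 (145 ± 6.46 CPM against 19.98 ± 3.98), Tead4, the DNA-binding partner of YAP (11.5 ± 0.977 CPM against 1.36 ± 0.456), and the zinc finger gene Zfp9 (33.6 ± 5.67 CPM against 1.80 ± 0.296). Foxo3, which insulin signalling keeps out of the nucleus, had 139, 129, 116 and 132 CPM in the goblet libraries and 435, 491, 455 and 419 CPM in the other libraries, a fall of 3.49-fold (adjusted p = 1.67e-11). Of 312 genes of the Zfp zinc finger class 92 were higher and 43 lower, with a median of 0.13, and 146 and 28 with library totals. Most steps in this class were small: 7 of the 92 and 5 of the 43 reached a log2 of 1.

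**Figure D4:**
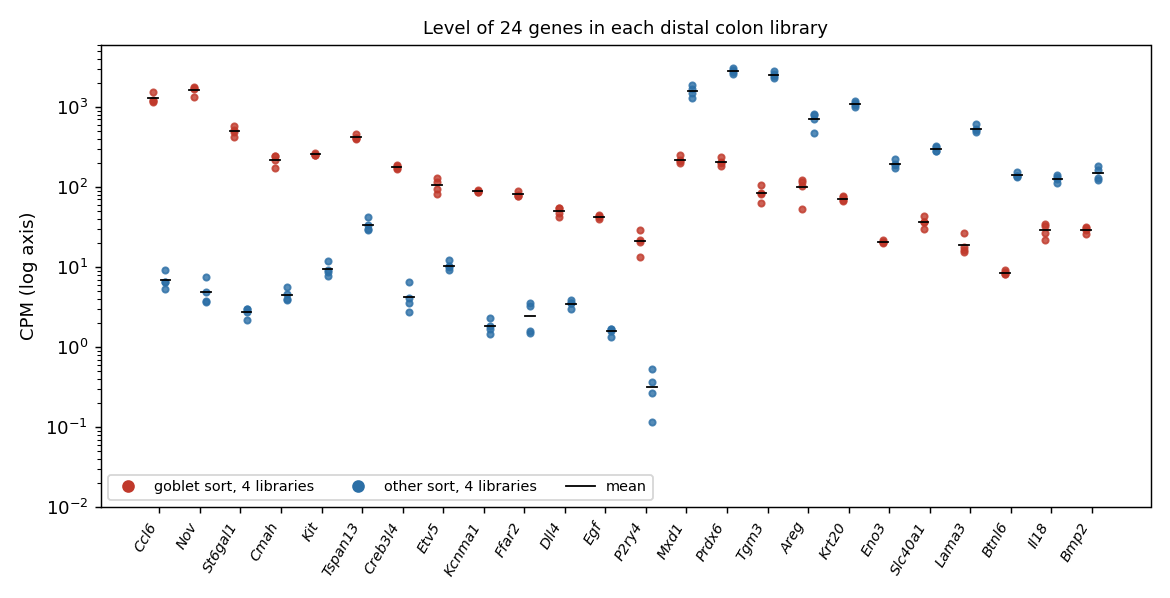
CPM on a log axis of 24 genes in each library, red for the 4 goblet libraries and blue for the 4 other libraries, with the mean as a black line. By the rule for naming genes, the 4 values of one sort lie apart from the 4 of the other in every gene shown. Examples are Nov (1345 to 1770 CPM against 3.70 to 7.52) and Tgm3 (64.0 to 107 CPM against 2305 to 2806).

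Both tested delta ligands of Notch were higher, in a pathway with 10 of 33 genes higher and 16 lower (13 and 12 with library totals). Dll4, a membrane ligand of Notch, had 55.5, 55.1, 42.7 and 47.6 CPM in the goblet libraries and 3.52, 2.98, 3.86 and 3.54 CPM in the other libraries. No value of one sort came near the other, and the rise was 3.85 ± 0.12 (14.4-fold, adjusted p = 9.50e-13). Dll1 (68.7 ± 7.04 CPM against 9.55 ± 0.359) and Lfng, which tunes Notch by adding sugar (36.6 ± 2.02 CPM against 7.51 ± 1.20), were higher too. Notch1 had 25.7, 37.4, 25.8 and 27.4 CPM in the goblet libraries and 58.8, 62.4, 55.8 and 65.4 CPM in the other libraries, and fell by 2.08-fold (adjusted p = 1.56e-06). Notch2 (11.4 ± 1.71 CPM against 22.1 ± 2.09) and the jagged ligands Jag1 (30.5 ± 1.59 CPM against 40.2 ± 2.65) and Jag2 (2.18 ± 0.574 CPM against 3.05 ± 0.386) were lower as well, and Notch4 was higher (29.7 ± 2.75 CPM against 7.15 ± 0.889). Jag1, Jag2 and Notch4 were chosen after their values were seen.

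Epidermal growth factor ligands differed in direction, in a list with 7 of 27 higher and 15 lower. Egf had 44.6, 39.7, 41.9 and 43.6 CPM in the goblet libraries and 1.70, 1.67, 1.60 and 1.36 CPM in the other libraries, a rise of 4.73 ± 0.11 (26.6-fold, adjusted p = 3.86e-14). Areg, amphiregulin, had 117, 103, 53.5 and 122.63 CPM in the goblet libraries and 710.1, 818, 479 and 801 CPM in the other libraries. S13 and S14 were the lowest of their sorts, and the fall was 7.11-fold (−2.83 ± 0.31, adjusted p = 0.000116). Hbegf (159 ± 54.5 CPM against 719 ± 126) and Ereg (0.889 ± 0.404 CPM against 14.8 ± 5.41) were lower too, whereas Btc, betacellulin, was higher (14.2 ± 1.29 CPM against 9.49 ± 1.17).

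BMP and TGF-beta genes were mostly lower, 22 of 36 against 6 higher (median −0.45). Bmp2, a ligand of the pathway, had 30.6, 29.2, 26.2 and 31.7 CPM in the goblet libraries and 132, 163, 121 and 182 CPM in the other libraries, with all goblet values below all others and a fall of 5.08-fold (adjusted p = 5.81e-09). Bmp3 (18.8 ± 1.70 CPM against 97.9 ± 8.32) and Bmp8b (0.551 ± 0.158 CPM against 14.9 ± 1.77) fell too, and the activin receptor Acvr1c rose (52.3 ± 3.79 CPM against 17.4 ± 2.38). In the Wnt pathway 13 of 44 were higher and 21 lower, with the receptors Fzd9 (12.5 ± 3.06 CPM against 0.315 ± 0.102) and Ror2 (18.1 ± 1.46 CPM against 5.51 ± 0.846) higher and Tcf7l2, the main transcription factor of the pathway in colon (30.7 ± 2.55 CPM against 118 ± 9.23), and Lgr4, an R-spondin receptor (219 ± 7.72 CPM against 485 ± 25.4), lower. Eph receptors and ephrins had 8 of 13 lower, among them Epha2 (33.8 ± 9.46 CPM against 208 ± 57.6) and its ligand Efna1 (35.6 ± 4.56 CPM against 132 ± 11.3), while the crypt receptors Ephb2 (129 ± 8.28 CPM against 89.3 ± 3.65) and Ephb3 (67.8 ± 5.22 CPM against 53.4 ± 3.43) were higher.

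Among other growth factors and their receptors 13 of 39 were higher and 20 lower. Kit, the receptor of stem cell factor, had 268, 249.0, 254 and 249.4 CPM in the goblet libraries and 7.75, 8.58, 11.98 and 9.11 CPM in the other libraries, a rise of 4.77 ± 0.10 (27.3-fold, adjusted p = 3.03e-14). Nov (CCN3), a secreted matricellular protein (chr15:54745702-54754039, plus strand), had 1679.5, 1345, 1770.2 and 1714 CPM in the goblet libraries and 3.70, 3.78, 7.52 and 4.83 CPM in the other libraries. It was 328-fold higher (8.36 ± 0.22, adjusted p = 8.64e-11), and at 567 CPM per kilobase of its longest transcript it stood above Kit at 48.7 in goblet cells. Fgfr3 was higher (157 ± 13.8 CPM against 34.9 ± 2.07), and Klb, the coreceptor of endocrine FGFs (3.49 ± 0.655 CPM against 32.3 ± 1.71), and Pdgfa (29.3 ± 2.65 CPM against 114 ± 14.7) were lower.

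Several receptors for metabolites differed by large factors. Ffar2, which senses short-chain fatty acids, had 77.2, 77.6, 79.4 and 89.8 CPM in the goblet libraries and 1.59, 1.53, 3.53 and 3.26 CPM in the other libraries. The rise was 5.03 ± 0.18 (32.7-fold, adjusted p = 2.08e-10). P2ry4, a receptor for extracellular UTP, had 21.7, 13.6, 28.7 and 20.6 CPM in the goblet libraries and 0.117, 0.364, 0.532 and 0.272 CPM in the other libraries, a rise of 6.03 ± 0.36 (adjusted p = 3.02e-08) from a level near 0. Ffar4, which senses long-chain fatty acids, was higher (92.4 ± 21.1 CPM against 13.6 ± 3.95), whereas P2ry2, also a UTP receptor, was lower (4.11 ± 0.618 CPM against 24.7 ± 3.53). Over the list of receptors for metabolites, purines and transmitters 9 of 35 were higher and 20 lower, with Gprc5a (77.2 ± 10.6 CPM against 650.0 ± 93.1) among the latter.

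Calcium and potassium genes changed in both directions. 21 of 50 calcium signalling genes were higher and 19 lower. The Golgi pump Atp2c2 (339 ± 36.996 CPM against 29.3 ± 6.11) and the ER pump Atp2a3 (2269 ± 44.7 CPM against 756 ± 34.7) rose. Of the ER release channels Itpr1 rose (185 ± 29.5 CPM against 30.4 ± 1.81) and Itpr2 (75.8 ± 7.15 CPM against 88.9 ± 7.52) and Itpr3 (272 ± 4.96 CPM against 324 ± 28.7) fell, all named to show the whole family. Export across the plasma membrane was lower for the pump Atp2b1 (108 ± 3.96 CPM against 681 ± 54.4) and the exchanger Slc8a1 (3.32 ± 0.954 CPM against 39.1 ± 9.62). Of 24 potassium channels 12 were higher and 9 lower. Kcnma1, the large-conductance calcium-activated channel, had 91.1, 87.02, 90.4 and 87.1 CPM in the goblet libraries and 1.47, 2.33, 1.86 and 1.70 CPM in the other libraries, a rise of 5.60 ± 0.10 (48.6-fold, adjusted p = 6.12e-15). Kcnh3 (35.1 ± 4.51 CPM against 1.74 ± 0.311) and Kcnh2 (10.996 ± 0.281 CPM against 1.37 ± 0.0533) were higher, and Kcnk5 (44.7 ± 3.39 CPM against 198 ± 9.63) and Kcnq1 (35.9 ± 6.36 CPM against 71.8 ± 8.42) lower.

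Proliferation genes had 1 of 32 higher and 0 lower (median 0.23). Their summed level was 2105, 2244, 2432 and 1749 CPM in the goblet libraries and 1924, 1629, 2288 and 1510 CPM in the others. The sorts overlapped, and without other library S14 15 of the 32 were called higher. Circadian clock genes had 12 of 23 lower and 2 higher (median −0.47). Cry1, a repressor of the clock, had 33.2, 16.7, 21.6 and 20.9 CPM in the goblet libraries and 92.9, 73.7, 74.7 and 77.2 CPM in the other libraries, a fall of 3.45-fold (adjusted p = 2.62e-05), and Per3 was higher (34.1 ± 4.86 CPM against 16.6 ± 2.87). The time of day at which each sort was taken is not given in the sources used here.

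The hypoxia response had 18 of 28 lower and 6 higher, with Egln3 (8.05 ± 1.24 CPM against 57.7 ± 9.94) and Adm (6.9998 ± 1.05 CPM against 28.04 ± 4.66) lower and Hif3a (14.7 ± 2.86 CPM against 1.96 ± 0.491) and Ndrg1 (333 ± 11.4 CPM against 83.6 ± 12.1) higher. Apoptosis regulators had 18 of 37 lower and 6 higher. Bcl2, which blocks apoptosis at mitochondria, had 65.1, 52.4, 74.4 and 52.7 CPM in the goblet libraries and 14.03, 14.3, 22.6 and 15.3 CPM in the other libraries. Other library S14 was the highest of its sort, and goblet cells stood 3.69-fold above (adjusted p = 3.03e-06). Mcl1, of the same family, was lower (315 ± 27.8 CPM against 853 ± 36.04), as were Casp4 (28.1 ± 8.37 CPM against 93.2 ± 19.8) and the BH3 protein Pmaip1 (56.7 ± 15.5 CPM against 238 ± 43.3). The p53 targets Trp53inp1 (494 ± 92.9 CPM against 151 ± 8.62) and Cdkn1a (46.4 ± 4.68 CPM against 128 ± 17.2) went opposite ways. Cytosolic chaperones had 17 of 42 higher and 6 lower, all higher ones by a log2 under 1.

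Most tested myosins and junction genes were lower in goblet cells. Of 27 myosins 21 were lower and 4 higher (median −0.60), of 11 desmosome genes 10 were lower and 1 higher (median −1.10), and of 28 claudins and tight junction genes 19 were lower and 8 higher. Myo15b (229 ± 29.6 CPM against 1411 ± 150.2) and Myh14 (339 ± 16.03 CPM against 1577 ± 172) were among the lower myosins. Evpl, envoplakin, which links desmosomes to keratin, had 21.9, 24.3, 20.2 and 23.1 CPM in the goblet libraries and 167, 198, 149 and 177 CPM in the other libraries, a fall of 7.73-fold (adjusted p = 1.03e-12). Dsg2 (222 ± 10.98 CPM against 721 ± 60.4) and Jup (186 ± 6.08 CPM against 459 ± 28.98), which build the plaque and its cadherin, fell as well. Pkp1 was the single desmosome gene that rose (78.97 ± 5.70 CPM against 45.7 ± 4.96).

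Of 15 tested keratins 9 were lower and 4 higher. Krt20, a keratin of mature surface cells, had 77.4, 68.002, 67.7 and 74.3 CPM in the goblet libraries and 1062, 1180.3, 1012 and 1112 CPM in the other libraries, a fall of 15.2-fold (adjusted p = 1.10e-14). Krt7 had 328, 307, 333 and 317 CPM in the goblet libraries and 97.2, 89.2, 85.3 and 89.3 CPM in the other libraries, and rose 3.56-fold (adjusted p = 2.36e-12). Krt18 rose (846 ± 83.5 CPM against 546 ± 76.5) while its usual partner Krt8 fell (2618 ± 202 CPM against 5783 ± 397). Tgm3, a transglutaminase that crosslinks proteins, had 84.4, 81.4, 64.01 and 107 CPM in the goblet libraries and 2305, 2806, 2440.4 and 2608 CPM in the other libraries, a fall of 30.2-fold (−4.92 ± 0.15, adjusted p = 1.45e-11).

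Laminin and basement membrane genes had 11 of 15 lower and 3 higher, and integrins 11 of 21 lower and 5 higher. Lama3, a chain of laminin 332, had 16.3, 15.4, 17.98 and 26.5 CPM in the goblet libraries and 482, 524, 513 and 611 CPM in the other libraries, a fall of 28.3-fold (adjusted p = 1.02e-09). Its partner chain Lamb3 (87.9 ± 5.01 CPM against 355 ± 41.8) and the integrin Itgb6 (46.4 ± 7.23 CPM against 160.1 ± 22.9) were lower, whereas the proteoglycan perlecan, Hspg2, was higher (82.01 ± 7.0002 CPM against 41.9 ± 0.618). Cldn15, which forms cation pores, was one of the higher claudins (229 ± 4.64 CPM against 63.2 ± 5.67), with Cldn2 (204 ± 22.5 CPM against 109.5 ± 21.7), and Cldn8 (63.5 ± 7.67 CPM against 213 ± 20.5) and Cldn23 (87.9 ± 9.64 CPM against 315 ± 19.2) were lower. Of 23 tetraspanins 14 were higher and 7 lower. Tspan13 had 400.0, 413, 461 and 409 CPM in the goblet libraries and 33.6, 29.2, 42.9 and 30.2 CPM in the other libraries, a rise of 12.4-fold (adjusted p = 5.55e-12).

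Among 12 tested chemokines 2 were higher and 6 lower. Ccl6 (chr11:83587882-83593087, minus strand), a chemokine of the CC class, had 1198, 1151, 1536 and 1233.6 CPM in the goblet libraries and 6.52, 5.38, 9.25 and 6.53 CPM in the other libraries. It rose by 7.53 ± 0.16 (184-fold, adjusted p = 8.64e-13), and at 889 CPM per kilobase it stood above St6gal1 at 111 in goblet cells. The related Ccl9 was higher as well (33.4 ± 4.50 CPM against 2.43 ± 0.343), and Ccl28 (81.6 ± 2.999 CPM against 169.7 ± 8.16), Ccl20 (5.65 ± 0.9996 CPM against 12.2 ± 2.27) and Cxcl16 (18.2 ± 6.41 CPM against 71.6 ± 11.9) were lower. Myeloid and mast cell markers summed to 37.3 to 40.1 CPM in goblet libraries and 35.1 to 40.7 CPM in the others, overlapping ranges. These sums hide opposite changes: of 6 tested members 3 were higher and 3 lower, the 3 lower ones by a log2 of at least 1. The cell source of Ccl6 was not tested. Mptx1, a mucosal pentraxin, had 4703, 2889.7, 6489.8 and 4564 CPM in the goblet libraries and 13.97, 11.3, 28.2 and 13.7 CPM in the other libraries, a rise of 8.12 ± 0.45 (adjusted p = 1.90e-06).

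Interleukin genes and receptors had 4 of 20 higher and 10 lower. Il13ra1, a chain of the receptor for IL-4 and IL-13, had 418, 378, 440.3 and 450.1 CPM in the goblet libraries and 121, 122.97, 129 and 124 CPM in the other libraries, a rise of 1.76 ± 0.07 (3.39-fold, adjusted p = 8.34e-12). Il6ra was higher too (24.2 ± 7.003 CPM against 2.05 ± 0.621). Il18 had 34.7, 26.5, 22.03 and 32.4 CPM in the goblet libraries and 132, 142, 113 and 124.5 CPM in the other libraries, a fall of 4.43-fold (adjusted p = 2.25e-08), and Il22ra1, which receives IL-22, was lower (21.1 ± 2.47 CPM against 82.5 ± 8.17). Of 9 B7 and butyrophilin genes 7 were lower and 1 higher (median −2.30). Btnl6, of the family known to hold intraepithelial γδ T cells, had 8.76, 8.14, 8.21 and 9.16 CPM in the goblet libraries and 134, 153, 136 and 136 CPM in the other libraries, a fall of 16.4-fold (adjusted p = 7.46e-15), and Btnl1 was lower too (5.03 ± 0.672 CPM against 43.2 ± 3.89). MHC class I and peptide loading had 16 of 27 lower and 6 higher, and the NF-kB pathway 15 of 38 lower and 5 higher. H2-Q and H2-T genes share near-identical sequence, so the counts of single members are uncertain.

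Noncoding RNA classes differed in their shares of called genes. Long intergenic RNAs had 74 of 222 higher (33.3%) and 45 lower (20.3%). Antisense RNAs had 61 of 224 (27.2%) and 49 (21.9%), and processed transcripts 47 of 159 (29.6%) and 30 (18.9%). The shares higher were near the 31.2% of all tested genes, and the shares lower were below the 32.1% of all. Of 81 sense intronic transcripts 48 were lower and 4 higher, of 70 small nucleolar RNAs 31 and 5, of 22 small nuclear RNAs 12 and 3, and of 9 small Cajal body RNAs 9 and 0, against 3945 lower and 3984 higher of 12139 protein-coding genes. Sense intronic transcripts took 0.0265% ± 0.00207 of goblet counts and 0.0471% ± 0.00513 of the others (SD, n = 4). Malat1, an abundant RNA of nuclear speckles, had 10889, 9383, 9301 and 9718 CPM in the goblet libraries and 16328, 20236, 15190.2 and 17118 CPM in the other libraries. The sorts did not overlap, and the fall was −0.81 ± 0.10 (1.75-fold, adjusted p = 4.04e-06). These libraries also differ by purification column, whose part in these shares cannot be told apart from that of the cell type. Small RNAs shorter than the library fragments are captured poorly by such libraries, and transcripts inside introns share reads with the host gene.

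Protein-coding genes were divided by their longest transcript into 5 groups of near equal size. Of the 2428 longest, 5283 bases and more, 679 were higher and 1006 lower, and of the 2428 shortest, up to 2001 bases, 865 were higher and 676 lower. By chromosome, the share of higher genes ran from 26.7% on chromosome 1 (38.9% lower) to 36.9% of 407 genes on the X chromosome (26.5% lower). Chromosome 9 was close to the latter, with 35.8% higher and 27.1% lower. DNA and histone modifiers had 31 of 70 lower and 11 higher, among them the demethylase Tet2 (60.8 ± 12.7 CPM against 140.2 ± 14.1) and the methyltransferase Kmt2d (77.4 ± 6.48 CPM against 160.4 ± 20.8).

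Noncoding RNAs of the imprinted Dlk1-Dio3 region were high in goblet cells and near 0 in the others. Rian (chr12:109603940-109661716, plus strand, GRCm38) had 199, 211, 214 and 226 CPM in the goblet libraries and 0.352, 0.436, 0.266 and 0.0680 CPM in the other libraries. The difference was 9.52 ± 0.15 (736-fold, adjusted p = 1.38e-15). Meg3 followed it (109 ± 7.89 CPM against 0.278 ± 0.104), and Mirg gave 1183 counts over the goblet libraries and 0 over the others, at least 363-fold higher against a floor of 3 counts over the 4 libraries. Over 28 tested imprinted genes 10 were higher and 8 lower, and Slc22a18 (18.9 ± 1.44 CPM against 58.2 ± 2.94) and Peg3 (3.06 ± 0.417 CPM against 10.4 ± 2.03) were among the lower ones.

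Enteroendocrine markers fell with 1 exception. 24 of 25 were lower, at a median of −2.21. Chgb, a granin of hormone granules, had 35.9, 54.2, 39.8 and 43.2 CPM in the goblet libraries and 272, 312, 364 and 306 CPM in the other libraries, a fall of 7.23-fold (adjusted p = 2.46e-09). Pcsk1, the convertase that cuts prohormones, had 26.5, 25.7, 23.8 and 29.7 CPM in the goblet libraries and 6.34, 5.60, 9.12 and 6.39 CPM in the other libraries, a rise of 1.94 ± 0.13 (3.83-fold, adjusted p = 6.07e-09). Among 17 stem cell markers 6 were higher and 2 lower, with Slc12a2 higher (1198 ± 143 CPM against 507 ± 44.4) and Lgr5 lower (8.73 ± 1.74 CPM against 14.7 ± 2.72), and tuft cell markers 2 of 17 higher and 1 lower.

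The effect of the sort was set against that in section 8 of the small intestine by an interaction term over all 16 libraries, in which 5133 of 16001 genes differed (32.1%). Of the 44 genes given above with a value in every library, 42 had at least 20 counts in the small intestinal libraries, and for 32 of them the effect differed between the regions. These genes were named for their differences in the distal colon, which also enter the interaction. Their share can therefore not be read against the 32.1% of all genes. Cmah stood at 0.0989 ± 0.0674 CPM in small intestinal goblet cells and 0.740 ± 0.243 CPM in the other cells there, from 14 and 95 counts. The direction was opposite to the colon but at a level near 0, and the effects differed by 8.47 ± 0.41 (adjusted p = 1.70e-11). Dll4 did not pass the test between the small intestinal sorts (39.2 ± 4.63 and 42.5 ± 8.56 CPM; difference of effects 3.99 ± 0.20, adjusted p = 2.44e-11), and Il13ra1 was slightly lower in goblet cells there (144 ± 13.9 and 174 ± 11.96 CPM; 2.05 ± 0.11, adjusted p = 7.29e-11). Prdx6 was 157.9 ± 16.04 and 195 ± 19.6 CPM there, and its effects differed by −3.43 ± 0.14 (adjusted p = 1.20e-12). By contrast the effects on Creb3l4 differed by −0.01 ± 0.25 (adjusted p = 0.994), on Rpl38 by 0.07 ± 0.12 (adjusted p = 0.693) and on Asns by 0.07 ± 0.16 (adjusted p = 0.783). Nov gave 3 counts in each small intestinal sort and Tgm3 4 in each, so no effect is given for them there.

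**Figure D5:**
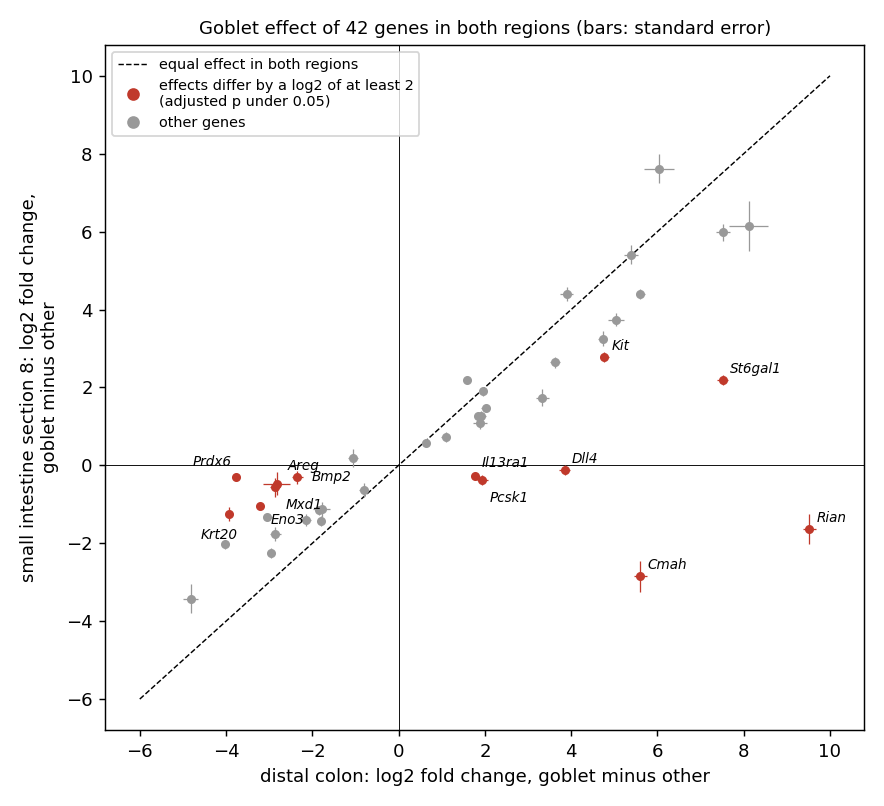
Log2 fold change, goblet minus other, of 42 genes in the distal colon (horizontal) and in section 8 of the small intestine (vertical), with standard errors and a dashed line of equal effects. The 13 genes in red differ between the regions by a log2 of at least 2, with Cmah and Rian higher in colon goblet cells and below 0 in the small intestine. There both gave few counts, goblet against other 14 against 95 for Cmah and 14 against 41 for Rian.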

How the data were processed

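RNA of the 8 distal colon libraries was prepared with a stranded total RNA kit after ribosomal RNA depletion and sequenced from both ends, per the labels' protocols. The deposited values are raw counts per gene symbol. The submitters' processing notes name FastQC 0.11.2, STAR 2.4.0f, HTSeq 0.6.1p1, DESeq2 1.14 and mm10. The strand setting of the counting is not given in the sources used here, so values of antisense and overlapping genes are uncertain, as are those of near-identical copies such as Hspa1a and Hspa1b.

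Of 46882 listed genes, 4 entries with repeated symbols were left out and 23 date-like symbols are not named. Symbols were matched to GENCODE M21 (GRCm38) for 44786 of the rest. edgeR 4.0.16 in R 4.3.3 tested goblet against other libraries, using the 8 libraries only, with TMM factors (1.026 to 1.061 in goblet, 0.9238 to 0.9861 in other libraries), filterByExpr, a robust quasi-likelihood fit and Benjamini-Hochberg adjustment over 13955 genes. Calls are at an adjusted p under 0.05. Every adjusted p in the text comes from this test, except those given for a difference of effects between the regions. Those come from the interaction test, which used all 16 libraries and was adjusted over 16001 genes. A fold against a group at 0 counts uses a floor of 3 counts over the group. In simulated data with 13955 genes, 100 were changed 2-fold and 100 4-fold, in independent libraries. The distal colon test recovered 91% of the 2-fold and 100% of the 4-fold changes, and 5.45% of its calls were false. In the real data 63.2% of genes were called, so this false share does not carry over to those calls. Replicates differed by more than counting noise in all 12 pairs (chi-square per degree of freedom 4.82 to 19.1).

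The comparison and its 90 gene lists (3767 entries) were chosen with earlier results of these data known. Named genes are called genes without overlap between sorts and with at least 10 CPM in the higher sort, taken from the 15 largest changes in each direction, by fold and by level, and up to 3 in each direction per list. Genes named for other reasons are given with their reason or as an exception within a list. Alternatives were other scalings, other filters, DESeq2 1.42.0, all 16 libraries in 1 fit, and leaving out each library.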

Additional observations from a re-analysis of the deposited data

Results flagged for a closer look

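In 5 of 90 groups of 4 libraries checked, 1 library lay far from the other 3, where chance flags about 1 in 20. Pkm was lowest in goblet library S9 at 258.6 CPM, with the other goblet libraries from 278.4 to 280.4 CPM. Notch1 was highest in goblet library S11 at 37.38 CPM, against 25.74 to 27.41 CPM. In other library S14, Bcl2 reached 22.63 CPM (14.03 to 15.3 CPM in the rest) and Mptx1 28.15 CPM (11.27 to 13.97 CPM in the rest). Btnl6 was highest in other library S12 at 153.3 CPM, against 134.4 to 136.4 CPM.

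For 13 of the genes given with a value in every library, the effect of the sort differed between the regions by a log2 of at least 2. This limit was chosen after the values were seen, and the genes had been named for their distal colon differences. The difference, colon minus small intestine, was positive for Rian (11.20), Cmah (8.47), St6gal1 (5.34), Dll4 (3.99), Pcsk1 (2.34), Il13ra1 (2.05) and Kit (2.01). It was negative for Prdx6 (−3.43), Krt20 (−2.66), Areg (−2.33), Mxd1 (−2.27), Eno3 (−2.15) and Bmp2 (−2.01). The largest adjusted p among them was that of Areg, 5.97e-04, by edgeR's interaction test.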

How the results depend on the processing

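Of 6580 values of named genes recomputed under the alternatives, 6567 kept their direction and call, 13 fell short of the threshold (all of Fau, Rpl9, Itga1, Itgb1 or Tnfrsf10b) and 0 reversed. The named genes had been chosen as called and without overlap in the same libraries. A high share kept was therefore built into the choice and does not extend to other called genes. Of 2184 list counts 60 moved by more than 1.5 times, 25 of them on leaving out 1 library, 21 with library totals as the scale and 14 under other settings. With every gene with at least 1 count, 1837 genes were higher by a log2 of at least 1, against 1201. The share of counts taken by the 10 most abundant genes differed by 0.318 percentage points, goblet minus other, and by −1.31 without Muc2 and Fcgbp. Both were left out for their high goblet level, with no matching genes left out of the other sort. Leaving out 1 library at a time gave 4110 to 4578 higher and 4178 to 4551 lower genes, 1247 to 1325 higher and 1790 to 1925 lower by a log2 of at least 1, 468 to 470 of 470 named genes called in the same direction, 4722 to 5459 genes whose effect differed between the regions, and a share difference of 0.138 to 0.682.

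With library totals, more members were higher among splicing regulators (33 against 20), cytosolic chaperones (28 against 17), DNA and histone modifiers (19 against 11), the proteasome (21 against 11), the citric acid cycle (14 against 9, with 9 lower against 11), senescence genes (15 against 9) and apoptosis regulators (10 against 6). With every gene with at least 1 count, 19 potassium channels were higher against 12, and 19 interleukin genes lower against 10 (18 by DESeq2). In the fit of all 16 libraries 14 potassium channels were lower against 9. Proliferation genes called higher rose from 1 to 8 with library totals and to 12 with every gene with at least 1 count, and ranged from 0 to 15 on leaving out 1 library. No paired analysis was possible because the sorts share no library number and the labels tie no libraries to a common animal.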
